A study of Mus musculus with 3 samples.

Results

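The genes described here are the inhibitors of cyclin-dependent kinases (CDKs) and the cyclins of G1, the phase of the cell cycle before DNA synthesis. They were chosen by name, as every probe whose gene symbol in the array's annotation was Cdkn1a, Cdkn1b, Cdkn1c, Cdkn2c, Cdkn2d, Ccnd1, Ccnd2, Ccnd3, Ccne1 or Ccne2. This gave 10 genes of 19910 with a symbol, and 22 probes of 38880. The tissue was cortex of 129Sv mouse embryos at E15.5 (embryonic day), either wild type or Snf2l-Ex6DEL, which lack exon 6 of Snf2l. This gene, now named Smarca1, encodes a chromatin remodelling ATPase of the ISWI family. The labels name no further allele or treatment and do not say whether a sample was 1 embryo or several, nor the sex or litter. RNA of 2 samples per genotype was compared on 3 two-colour arrays. Replicates 1 and 2 set the same mutant RNA against the same wild-type RNA with the dyes exchanged (pair 1), and replicate 3 set the other mutant sample against the other wild-type sample (pair 2), so that n = 2 biological pairs.

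Each value is the log2 ratio of both channels of 1 array, and a gene's value on an array is the mean of its probes. Positive ratios are read as higher in the mutant, which the labels and the study's wording make likely but do not state. With the opposite numerator every sign below would turn. The arrays were centred near 0, with medians of 0.009, 0 and 0.001 on replicates 1 to 3. Between 11.7% and 21.9% of the probes of an array shared its most frequent value, equal to its median, which was read as no measurement. The single Smarca1 probe read -0.017, 0.36 and 3.11. The sources used here do not say whether that probe lies in the deleted exon, so its ratio is no check of the labels. Ratios hold no signal level, so the labelled tissue could not be checked against its markers. In bulk tissue a change in the number of cells of a type and a change in RNA per cell cannot be told apart.

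Cells leave G1 when cyclins of the D and E families activate CDKs, which phosphorylate the retinoblastoma protein and its relatives and so release E2F transcription factors. D cyclins work with CDK4 and CDK6 and carry growth signals, and E cyclins work with CDK2 at the entry into S phase. Inhibitors of the CIP/KIP family (Cdkn1a, Cdkn1b and Cdkn1c) bind cyclin-CDK complexes, those of E and A cyclins above all, while the INK4 family (Cdkn2c and Cdkn2d among them) binds CDK4 and CDK6 alone. In the embryonic cortex, the length of G1 and the time of cell cycle exit bear on whether a progenitor divides again or becomes a neuron, and p27, the product of Cdkn1b, accumulates as neurons are born.

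Promoter sequence is shown for Cdkn1a and Ccnd3, whose ratios were below 0 in pair 1 and above 0 in pair 2 and for which RefSeq (GRCm38.p6) gave a window. RefSeq windows matched 6 of the 10 genes, with 9 starts in all. Each sequence holds the 250 bases before a start on the plus strand, 5′ to 3′. Capitals mark GC boxes (GGGCGG on either strand) and a pair of CATG cores spaced as in a p53 response element (CATGNNNNNNCATG, which reads the same on both strands). These motifs did not overlap in the windows shown.
Cdkn1a, upstream start, chr17:29090729-29090978: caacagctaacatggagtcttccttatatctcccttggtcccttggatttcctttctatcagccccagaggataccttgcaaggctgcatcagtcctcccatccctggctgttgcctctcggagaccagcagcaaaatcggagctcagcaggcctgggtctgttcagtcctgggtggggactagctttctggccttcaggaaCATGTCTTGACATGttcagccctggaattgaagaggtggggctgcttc
Cdkn1a, downstream start, chr17:29093519-29093768: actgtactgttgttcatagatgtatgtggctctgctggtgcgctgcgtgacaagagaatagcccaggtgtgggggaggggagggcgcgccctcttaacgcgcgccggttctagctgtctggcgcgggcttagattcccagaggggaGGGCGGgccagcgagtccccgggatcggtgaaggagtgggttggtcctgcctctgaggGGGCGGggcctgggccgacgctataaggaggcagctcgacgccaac
Ccnd3, upstream start, chr17:47504801-47505050: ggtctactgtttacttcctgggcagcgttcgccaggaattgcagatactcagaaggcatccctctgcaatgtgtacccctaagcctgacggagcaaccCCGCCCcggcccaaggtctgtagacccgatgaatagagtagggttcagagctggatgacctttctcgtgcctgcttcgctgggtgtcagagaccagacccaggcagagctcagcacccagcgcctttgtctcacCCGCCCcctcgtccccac
Ccnd3, downstream start, chr17:47593217-47593466: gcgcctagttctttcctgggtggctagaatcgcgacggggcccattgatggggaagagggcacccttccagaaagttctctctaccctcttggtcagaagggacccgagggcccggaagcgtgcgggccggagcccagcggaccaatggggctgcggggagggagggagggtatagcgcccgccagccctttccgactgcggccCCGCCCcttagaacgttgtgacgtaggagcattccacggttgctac
The paired CATG cores lie 48 to 35 bases before the upstream start of Cdkn1a, a gene known as a target of p53. They occurred in 161 of 32851 windows of that length (0.490%), and in 1 of the 9 windows of these genes. GC boxes occurred in 32.7% of all windows and in 7 of the 9. An E2F motif (TTTCCCGC, TTTCGCGC, TTTGCCGC or TTTGGCGC on either strand) was in 1.86% of all windows and in 0 of the 9. A match is a description of letters and not a measured binding site, and a missing match says only that these letters are not in the window.

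No gene of the group passed the test of mutant against wild type. Over the pairs, 0 of 10 genes had an adjusted p under 0.05 in limma's moderated test with Benjamini-Hochberg adjustment over 28333 features, where 0 features (0%) were called. At an unadjusted p of 0.05 it was 0 of 10 genes, against 715 features (2.52%). Gene means over the pairs ran from -0.99 for Ccnd3 to 0.31 for Cdkn1b on the log2 scale. Their median was -0.39, beside -0.027 over all features. By array the gene medians were -0.78, -0.33 and -0.10 on replicates 1 to 3, and 7, 7 and 6 of the 10 genes were below 0. Of all features, 45.6%, 41.4% and 41.0% were below 0 on these arrays. Features at an array's most frequent value, which was never below 0, count in these shares and lower them. The counts of the group are therefore not set against measured features alone.

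**Figure D1:**
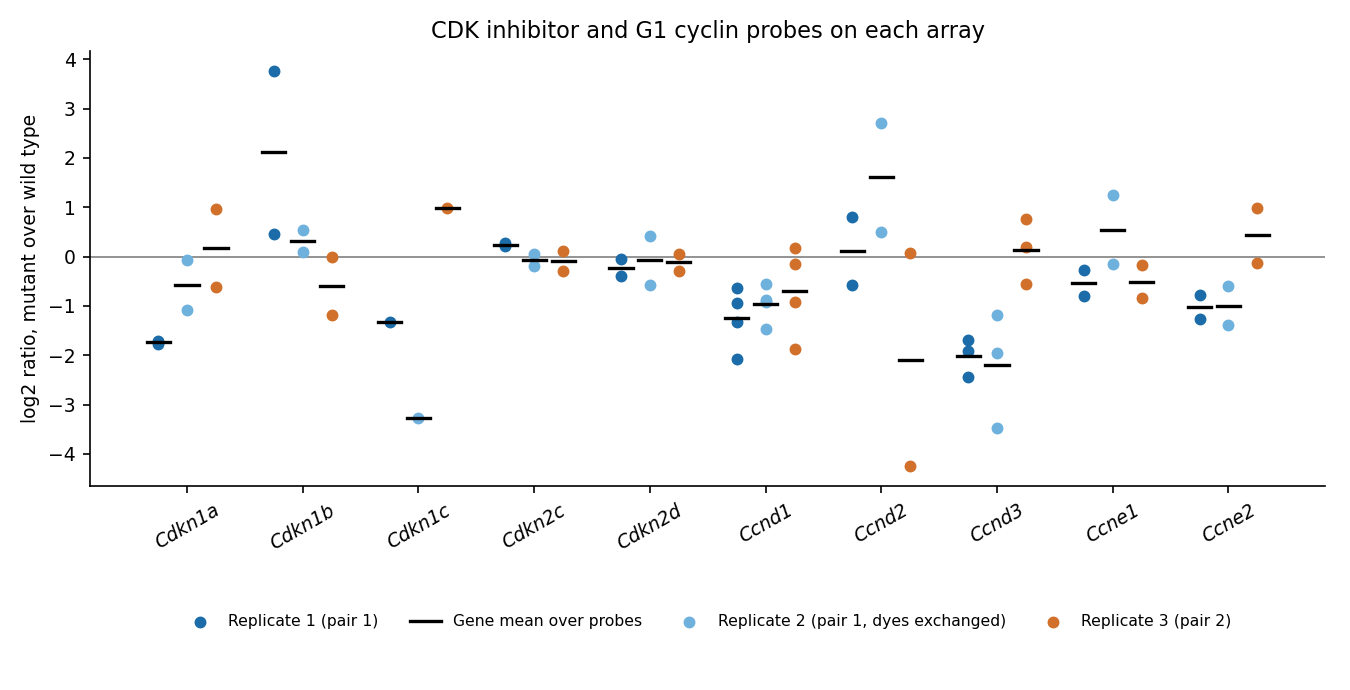
Log2 ratio of mutant over wild type (vertical axis) for each of the 22 probes (points) on each array (colours), by gene, with the gene mean as a black bar. Ccnd1 is the gene whose mean lies at least 1.5-fold below 0 on all 3 arrays, and the lowest point is a Ccnd2 probe at -4.26 on replicate 3.

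Ccnd1, which encodes cyclin D1, a D cyclin of radial glia and other dividing progenitors, had the smallest p of the group and the most probes. Its gene values were -1.252, -0.96 and -0.70 on replicates 1 to 3. All arrays were thus below 0, by 2.38-fold, 1.94-fold and 1.62-fold, and the pairs did not differ in sign. The mean over the pairs was -0.90 ± 0.26 (limma's moderated SE, n = 2 pairs), which is 1.87-fold. Limma's unadjusted p was 0.0687 and its adjusted p 0.852. Of its 12 probe values 11 were below 0. Probe UT25627 read -1.33, -0.88 and -1.88, and probe UT35770 read -2.08, -1.48 and -0.91. Probe UT33037 was nearer to 0, at -0.65, -0.55 and -0.16. Probe UT16776 read -0.95, -0.93 and 0.17, the exception to the shared sign. The 4 probes thus had 1 sign in pair 1 and differed in pair 2, where they spread from -1.88 to 0.17. With the median of the probes in place of their mean, Ccnd1 was less than 1.5-fold below 0 on replicate 3.

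Ccnd1 was the one gene of 10 whose ratio kept to 1 side of 0 by at least 1.5-fold on every array, as did 808 of 28333 features (2.85%). Those below 0 made up 1.73% of all features. Among 12522 genes without a probe at a most frequent value, 4.1% met that rule in either direction and 2.63% below 0. One gene in so small a group is no result about the group beside these shares. Ccnd1 and Cdkn2d, 2 of 10 genes, had 1 sign on all arrays, against 23.8% of features and 28.1% of those 12522 genes. Both were below 0 throughout, as were 9.8% of features and 15.1% of those genes. No gene of the group was above 0 on all arrays, where 14% of features were. The genes nearest to Ccnd1 in their 3 ratios, by Euclidean distance among 12521 genes, were Zfyve9, Avpi1, Tmem38a, Sipa1 and Aldh1a3, at distances of 0.086 to 0.20. With 3 arrays such closeness describes these ratios alone.

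The other D cyclins did not keep 1 sign on all arrays, though Ccnd3 was below 0 in pair 1 as Ccnd1 was. Ccnd3, which encodes cyclin D3, read -2.02 and -2.20 in pair 1 and 0.13 in pair 2. These are 4.05-fold and 4.61-fold below the wild type in pair 1 and 1.10-fold above it in pair 2. The mean of -0.99 ± 0.81 (moderated SE of 2 pairs, adjusted p in limma = 0.852) was the lowest of the group, and the SD between the pairs was 1.59. Probe UT37912 of Ccnd3 read -2.45, -1.96 and 0.20, and probe UT25679 read -1.92, -3.47 and 0.77. Probe UT32223 was below 0 on every array, at -1.69, -1.19 and -0.56. All 6 probe values of pair 1 were below 0, and pair 2 was split by probe. A further probe carries an older name of Ccnd3, 9230106B05Rik, and was left out by the rule on symbols. It read -3.22 and -0.26 in pair 1 and the most frequent value, 0.001, on replicate 3, and with it the mean of Ccnd3 was -0.96.

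Ccnd2, which encodes cyclin D2, found in basal processes of radial glia and in intermediate progenitors, had 2 probes that disagreed. Its gene values were 0.11, 1.61 and -2.09. Probe UT13210 lay above 0 on every array, at 0.81, 0.51 and 0.071. Probe UT14762 read -0.58 and -4.26 on replicates 1 and 3, which share a dye orientation, and 2.71 on replicate 2, where the dyes were exchanged. The sign of this probe followed the dye orientation of the arrays. The gene mean of -0.62 ± 1.04 (moderated SE of 2 pairs, adjusted p in limma = 0.894) became 0.36 without UT14762, so that this probe sets the sign.

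The E cyclins had means over the pairs nearer to 0 than those of the D cyclins. Ccne2, encoding cyclin E2, read -1.02 and -0.99 in pair 1 and 0.43 in pair 2, with a mean of -0.29 ± 0.54 (moderated SE of 2 pairs, adjusted p in limma = 0.910). Its probe UT02205 was below 0 on every array, at -0.78, -0.60 and -0.12, and probe UT21490 read -1.27, -1.38 and 0.99. The probes shared the sign of pair 1 and parted in pair 2, as those of Ccnd3 did. Ccne1, encoding cyclin E1, read -0.53, 0.54 and -0.51, below 0 on the arrays of one dye orientation and above 0 on the exchanged one. Its mean was -0.25 ± 0.28 (moderated SE of 2 pairs, adjusted p in limma = 0.853). Probe UT38325 of Ccne1 stayed below 0, at -0.79, -0.16 and -0.18, and probe UT38739 read -0.28, 1.247 and -0.84. It is this second probe that changed sign with the dyes.

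Among the CIP/KIP inhibitors, Cdkn1a and Cdkn1c shared a pattern over the pairs and Cdkn1b had the reverse one. Cdkn1a, which encodes p21, the inhibitor induced by p53, read -1.74 and -0.58 in pair 1 and 0.18 in pair 2. Its mean was -0.49 ± 0.51 (moderated SE of 2 pairs, adjusted p in limma = 0.852). Probe UT26508 was at least 1.5-fold below 0 on every array, at -1.77, -1.09 and -0.62. Probe UT24746 read -1.71, -0.064 and 0.97. The probes matched on replicate 1 and lay about 1 apart or more on the other arrays, so that the gene value of pair 2 is a mean of opposite signs. The genes nearest to Cdkn1a in their 3 ratios were Coq8a, Sorbs3, Rnase6, Zyx and Adgrf5, at distances of 0.073 to 0.21 among 12521 genes.

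Cdkn1c encodes p57, an imprinted inhibitor expressed from the maternal allele, abundant in embryonic muscle and cartilage. It was represented by 1 probe, UT08496, which read -1.33 and -3.27 in pair 1 and 0.98 in pair 2. The dye-swapped arrays had the same sign and differed by 1.94, the widest such gap of any of the 10 genes. The mean was -0.66 ± 1.15 (moderated SE of 2 pairs, adjusted p in limma = 0.900). Cdkn1b, encoding p27, read 2.12, 0.32 and -0.60, above 0 in pair 1 and below 0 in pair 2. Probe UT38691 of Cdkn1b read 3.77 on replicate 1 but 0.098 on the dye swap, and the most frequent value, 0.001, on replicate 3. Probe UT18370 repeated in pair 1, at 0.46 and 0.54, and read -1.19 in pair 2. The gene mean of 0.31 ± 0.66 (moderated SE of 2 pairs, adjusted p in limma = 0.924) became 0.012 without the spot at the most frequent value, where pair 2 read -1.19, and -0.35 without UT38691 altogether. Its sign thus rests on a probe that did not repeat.

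The INK4 inhibitors lay closest to 0. Cdkn2c, encoding p18, read 0.24, -0.073 and -0.090, with a mean of -0.0036 ± 0.22 (moderated SE of 2 pairs, adjusted p in limma = 0.997). Cdkn2d, encoding p19 of the INK4 family, an inhibitor expressed in neurons after their last division, read -0.23, -0.076 and -0.12, with a mean of -0.13 ± 0.22 (moderated SE of 2 pairs, adjusted p in limma = 0.888). The gene value farthest from 0, that of Cdkn2c on replicate 1, was 1.18-fold. Its probes give little weight to the shared sign of Cdkn2d: UT10433 read -0.058, -0.57 and -0.29, and UT28547 read -0.39, 0.42 and 0.050. For Cdkn2c, UT20138 read 0.27, -0.20 and 0.12 and UT33589 read 0.21, 0.049 and -0.30. Both probes of Cdkn2c and 1 of the 2 of Cdkn2d changed sign between arrays.

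**Figure D2:**
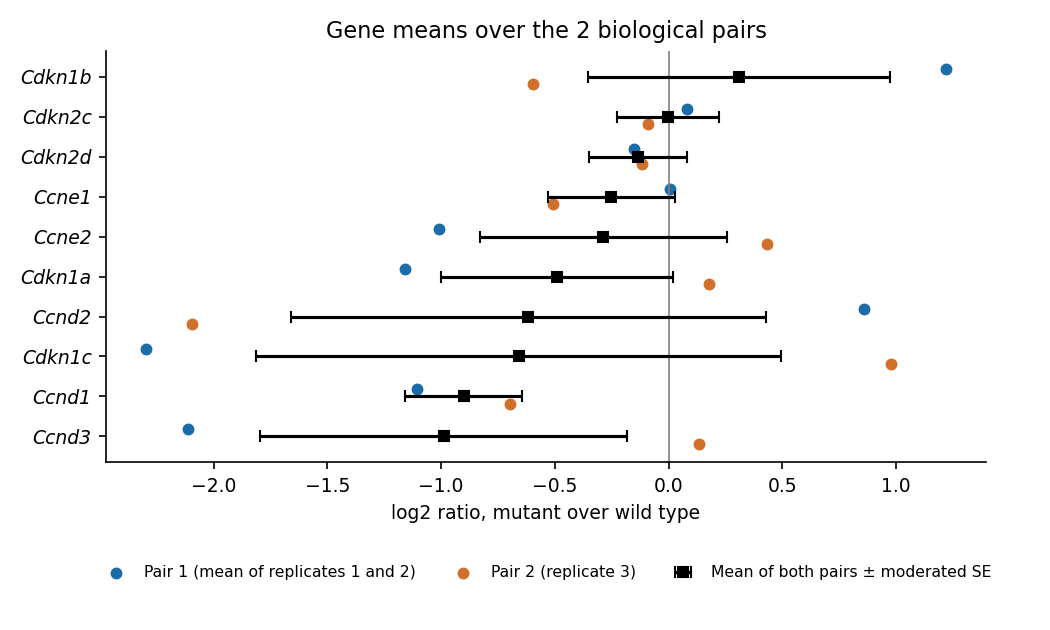
Mean log2 ratio of mutant over wild type for each gene (horizontal axis, squares with limma's moderated SE, n = 2 pairs), with pair 1 in blue and pair 2 in orange. Ccnd1 and Cdkn2d have both pairs below 0, and Ccnd3, Cdkn1c and Ccnd2 have the pairs farthest apart.

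The arrays of pair 1 repeated each other better than the pairs did. For 8 of the 10 genes replicates 1 and 2 had the same sign, beside 60.2% of the 12522 genes without a probe at a most frequent value. The mean of pair 1 and pair 2 had the same sign for 2 of the 10, Ccnd1 and Cdkn2d, beside 47.2% of those genes. The median difference between the dye-swapped arrays was 0.69 for the 10 genes and 0.53 for the 12522. The median difference between the pairs was 1.39 and 0.73. UT14762 of Ccnd2 and UT38691 of Cdkn1b were also left out, after their values were seen, because their replicates 1 and 2 lay over 2 apart. The medians of the 10 genes were then 0.30 for replicate 1 against replicate 2 and 0.96 for pair 1 against pair 2. That choice by itself favours a smaller value for the replicates, and the 12522 genes had no such filter. The 0.30 is therefore not set against their 0.53. Across the 10 genes, which share their arrays, Pearson's r was 0.62 between replicates 1 and 2 and -0.72 between the pairs, given as a description. Without spots at a most frequent value, the probes of 1 gene had 1 sign for 8 of the 9 genes with several probes on replicate 1, 6 of 9 on replicate 2 and 1 of 8 on replicate 3. Over all genes with 2 to 4 such probes the shares were 51.3%, 48.5% and 43.4%. Ratios of pair 2, measured on 1 array, were thus split between the probes of 7 of these 8 genes.

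Markers of tissues around the cortex also differed between the pairs. These and the other marker lists were chosen with earlier results of these data known, so their counts describe the listed genes only. Of 21 markers of skeletal muscle, cartilage, bone, meninges and fibroblasts, 20 were below 0 on both arrays of pair 1. On replicate 3, 14 were above 0, 5 were below and 2 sat at the most frequent value. Their medians were -4.75, -4.57 and 0.77, and they ranged from -9.72 to -0.11 on replicate 1 and from -2.41 to 3.89 on replicate 3. Being below 0 on replicates 1 and 2 and above 0 on replicate 3 was found for 13 of these 21 markers and for Cdkn1a, Cdkn1c, Ccnd3 and Ccne2, 4 of the 10 genes. Of all features 13.1% had that pattern, and 16.5% of the 12522 genes. Among the 4 genes, the probes of Cdkn1a, Ccnd3 and Ccne2 differed in sign on replicate 3. Each of these had a probe below 0 on every array, and Cdkn1c had a single probe. The part of these tissues in the ratios of the 4 genes was not tested. Ccnd1 stayed below 0 in pair 2, as did 5 of the 21 markers. Microglial and leukocyte markers also lay below 0 on all 3 arrays by their medians, at -1.39, -0.70 and -0.86 over 4 genes. Of these, Lyz2 read -2.06, -1.06 and -1.39 and Csf1r read -1.27, -0.33 and -2.05, the 2 of 4 below 0 throughout. The other genes of that list changed sign: Ptprc read -1.52, -1.14 and 2.60, and Aif1 read -1.21, 0.23 and -0.34. In the choroid plexus list 1 of 3 genes was below 0 throughout, Folr1, at -0.99, -1.38 and -1.80. Ttr read -0.54, -1.08 and 0.25, and Kl read -1.44, 1.32 and the most frequent value, 0.001. Endothelial markers had medians of -0.89, -1.25 and 0.52 over 4 genes and red cell markers -1.46, -2.54 and 0.55 over 4. The medians of these lists were thus above 0 in pair 2. Hbb-bh1, 1 of the 4 red cell genes, was below 0 throughout, at -1.50, -5.16 and -0.33. The part of any of these cells in the ratios of Ccnd1 was not tested.

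Most markers of intermediate progenitors and cortical neurons went the other way in pair 1. All 5 intermediate progenitor markers were above 0 on both arrays of pair 1, with medians of 1.83 and 1.91, and their median on replicate 3 was -0.12. Cortical neuron markers had medians of 1.64, 1.51 and 0.086 over 8 genes. All 8 were above 0 on replicate 1 and 6 of them on replicate 2. Dcx and Stmn2 were below 0 on replicate 2, at -0.26 and -0.34. Apical progenitor markers were mixed, with medians of -0.033, 0.32 and -0.39 over 9 genes, and 3 of 9 were below 0 and 3 of 9 above 0 on both arrays of pair 1. Cdkn1b and Ccnd2 were the genes of the group above 0 on replicates 1 and 2 and below 0 on replicate 3, a pattern of 11.3% of features, and it was found for 3 of the 5 intermediate progenitor markers, 3 of the 8 neuronal markers and 3 of the 9 apical progenitor markers. Neither probe of Ccnd2 had this pattern alone: UT13210 was above 0 on every array, and the sign of UT14762 followed the dye orientation. Whether a different share of cell types lay behind the ratios of these markers and genes was not tested.

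**Figure D3:**
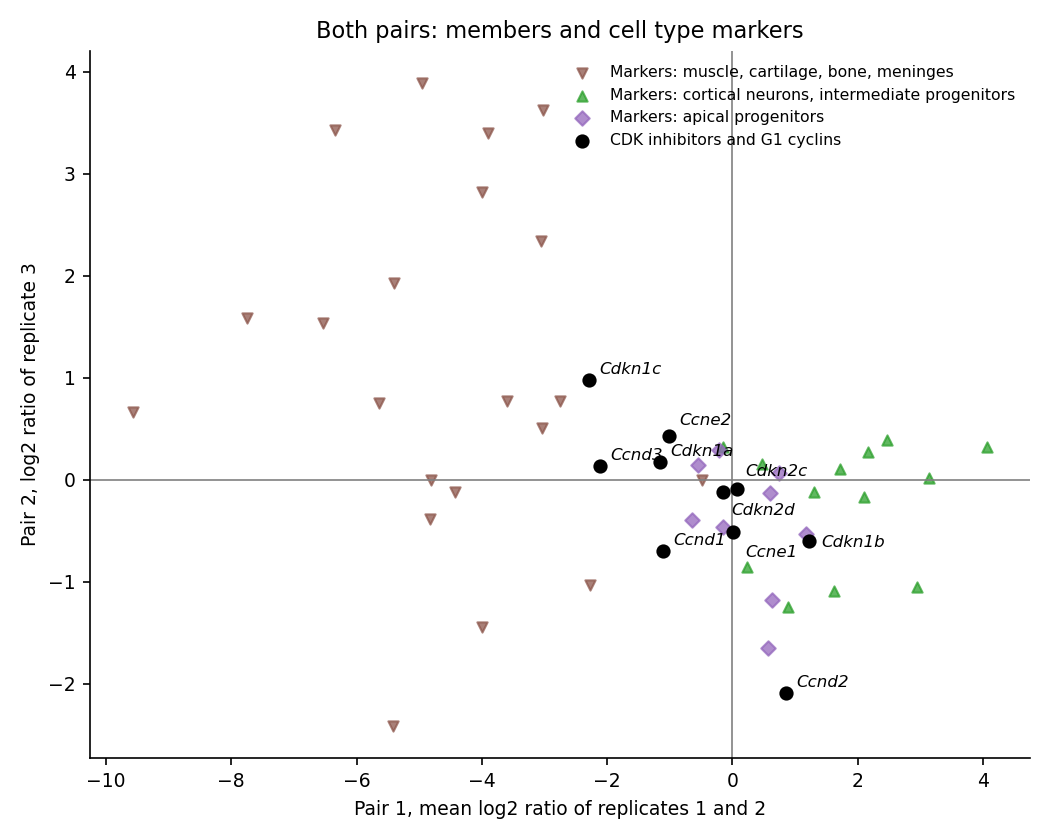
Log2 ratio of pair 1 (horizontal axis, mean of replicates 1 and 2) against pair 2 (vertical axis, replicate 3) for the 10 genes (black) and for marker genes of surrounding tissues, of neurons with intermediate progenitors, and of apical progenitors (coloured shapes). Most markers of surrounding tissues lie at the upper left, on the side of Cdkn1c, Ccnd3, Cdkn1a and Ccne2, and Ccnd1 lies below 0 on both axes.

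Other genes of the G1 to S transition gave no call. Of 60 measured genes in 5 lists, 0 passed an adjusted p of 0.05 in limma's test, 10 were below 0 on all arrays and 9 were above 0 on all arrays. Those shares stand beside 9.8% and 14% of all features. Among 13 G1 kinases and inhibitors the medians were -0.32, -0.31 and -0.045. Cdk4, the kinase partner of D cyclins, read 0.64, 0.21 and 0.23, and Cdk2, the partner of E cyclins, read -0.76, -0.70 and -0.10. Both kinases kept their sign over the arrays, at small ratios in pair 2. Cdk6, the other partner of D cyclins, with 1 probe, was at the most frequent value on replicate 1 and read -0.81 and -4.66 on replicates 2 and 3, opposite to Cdk4. Cdc25a, the phosphatase that activates CDK2, read -0.57, -1.248 and -0.97.

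Among 13 pocket proteins and E2F factors the medians were -0.006, 0.25 and -0.21. E2f8, a repressor of the E2F family, was the one at least 1.5-fold above 0 on every array, at 0.67, 2.79 and 1.21. It had 1 probe, whose dye-swapped values of 0.67 and 2.79 lay far apart. Of all probes, 1.23% were at least 1.5-fold above 0 on every array. Rb1, the retinoblastoma gene, read 0.24, 0.79 and -0.78, and its relative Rbl1 read 0.77, 0.74 and 0.067. E2F targets of S phase had medians of 0.084, 0.028 and -0.057 over 13 genes, and 1 was below 0 and 2 above 0 on all arrays. Rrm2, a subunit of ribonucleotide reductase, read 0.76, 0.40 and 0.13, and Mcm7, of the replicative helicase, read 0.34, 0.29 and 0.24. The S phase genes thus lay near 0 as a list, with no shared direction.

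Regulators of inhibitor and cyclin genes had medians of 0.33, 0.99 and 0.45 over 8 genes. Mycn, a growth factor-responsive transcription factor of neural progenitors, was at least 1.5-fold above 0 on every array, at 1.02, 1.69 and 0.75. Like E2f8 it had 1 probe. Bmi1, a Polycomb repressor of the Cdkn2a locus, read 0.94, 1.03 and -0.87, and Foxo1, a factor that can activate Cdkn1a and Cdkn1b, read -0.31, -0.55 and 0.96. These changed sign between the pairs. Targets of p53 besides Cdkn1a had medians of 0.18, -0.22 and -0.052 over 13 genes, 2 of them below 0 and 2 above 0 on all arrays. Phlda3 read -1.99, -2.12 and -0.22 and Ccng1 read -0.80, -0.90 and -0.15, while Pmaip1, which encodes Noxa, read 1.04, 1.24 and 0.18 and Trp53inp1 read 1.15, 0.49 and 0.72. The p53 targets were therefore split in direction, with Cdkn1a among those below 0 in pair 1.

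**Figure D4:**
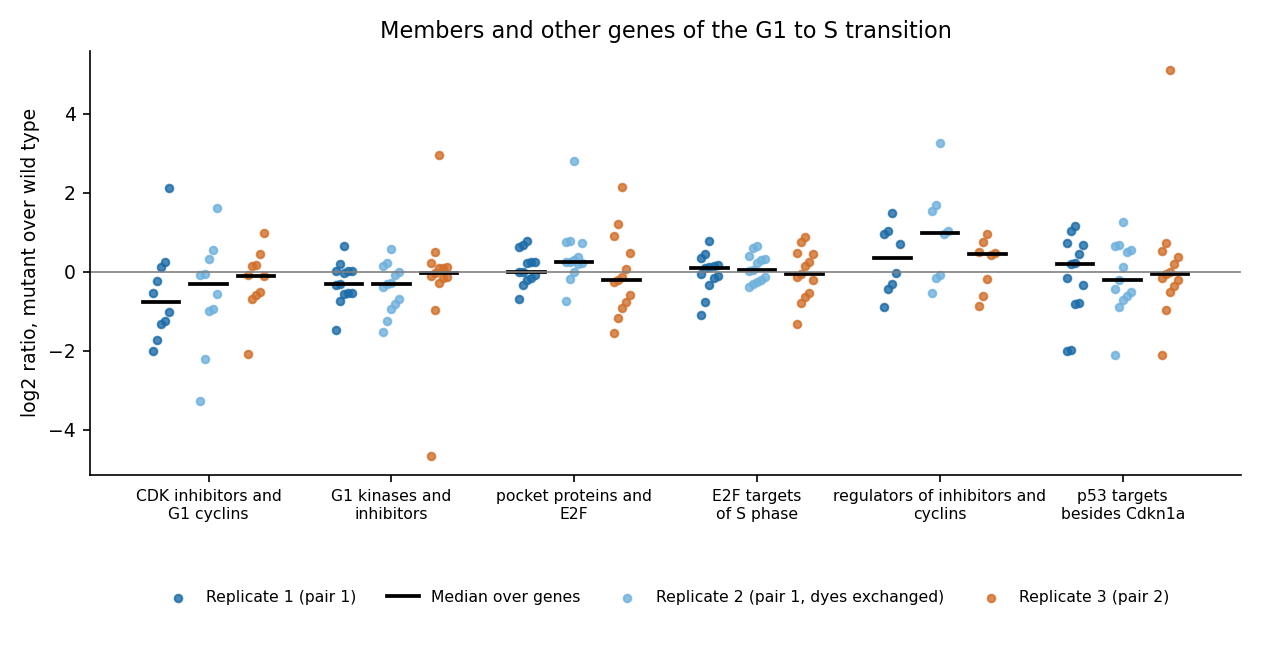
Log2 ratio of mutant over wild type (vertical axis) of each gene (points) in the group and in the 5 other lists, by array (colours), with the median over genes as a black bar. Medians lie between -0.78 and 0.99, and points on either side of 0 are present in every list on every array.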

How the data were processed

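RNA was extracted with RNeasy columns (Qiagen) and labelled with a Genisphere 3DNA kit, per the labels' protocols. The mutant channel was Cy5 and the wild-type channel Cy3 on replicates 1 and 3, and the reverse on replicate 2, per the labels. As deposited, the values were read as log2 ratios, already centred by the authors, from the values themselves. The scanner, background correction, spot filter, log base and numerator are not given in the sources used here. Signal intensities were not used. Of 38880 probes, 30457 had 1 gene symbol, 0 had several and 8423 had none, from platform annotation. Of 21476 symbols, 12795 were current in RefSeq GRCm38.p6, 8316 were replaced by the name they are a synonym of and 365 stayed as given. The annotation gives no probe positions, so none are printed.

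Probes of a symbol were averaged. Replicates 1 and 2 were averaged to 1 pair and tested with replicate 3 in limma 3.58.1 under R 4.3.3 (lmFit, eBayes, Benjamini-Hochberg, threshold 0.05). The moderated SE and the p-values concern the spread between 2 pairs, which may be partly technical. Precision is limited by the small number of arrays. The procedure was run on simulated data at the spread of these data and at a much smaller spread. Recovery of added changes was required only at the smaller spread, so a missing call does not show that a gene is unchanged. All 10 genes, their 22 probes and up to 4 genes per list, with those at least 1.5-fold one way on every array, were named by rule. The members, the 5 pathway lists (64 genes, 60 measured) and the marker lists were chosen with earlier results of these data known. Figures used Python 3.11.15 and matplotlib 3.10.9.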

Additional observations from a re-analysis of the deposited data

How the results depend on the processing

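The counts of 0 features and 0 genes of the group at an adjusted p of 0.05 held in limma under each alternative that gave a test: spots at the most frequent value left out, the median of probes, single probes, other centring or scaling, the arrays as independent, a dye term, robust eBayes, and replicate 1 or 2 left out. Without replicate 3 only 1 pair remains and no test was possible. The test was itself paired, because each array is already a ratio of mutant to wild type within 1 pair. With 1 group of ratios no further pairing was possible. The 2 genes of 1 sign on all arrays became 3 to 8 with 1 replicate left out. With single probes they became 10 of 22 (23.6% of all probes), where 1 of the 10 counts on a most frequent value. Below 0 were 8 of 22 (9.44% of all probes), among them UT25627, UT33037 and UT35770 of Ccnd1. Probes at a most frequent value, which was never below 0, count in the shares of all probes and lower those below 0. The 1 gene at least 1.5-fold one way on all arrays became 0 with the median of probes, 3 of 22 with single probes (3.13% of all probes), each of them below 0 (1.90%), 0 at 2-fold, and 1 to 4 with 1 replicate left out, since the rule then spans fewer arrays.

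Of 93 recomputed gene means 81 kept their sign. Those of Cdkn1a, Cdkn1c, Cdkn2d, Ccnd1, Ccnd3 and Ccne2 kept it in each alternative, with ranges of -1.16 to -0.20, -2.30 to -0.17, -0.17 to -0.097, -1.11 to -0.78, -2.11 to -0.87 and -1.01 to -0.28 in that order. Every alternative kept at least 1 array of pair 1, and none used pair 2 alone, so these kept signs do not show agreement between the pairs. On replicate 3 alone Cdkn1a, Cdkn1c, Ccnd3 and Ccne2 were above 0, at 0.18, 0.98, 0.13 and 0.43. The mean of Cdkn1b was 0.012 without spots at the most frequent value. Cdkn2c turned to 0.025 with independent arrays and 0.0005 with a dye term. With a dye term Ccnd2 became 0.31 and Ccne1 0.011. With 1 replicate left out Cdkn1b ran from -0.14 to 1.22, Cdkn2c from -0.081 to 0.082, Ccnd2 from -0.99 to 0.86 and Ccne1 from -0.52 to 0.018. Without the 2 probes over 2 apart between dye-swapped arrays, chosen after seeing the data, Cdkn1b was -0.35 and Ccnd2 0.36. Of the 10 genes, 3 then had 1 sign on all arrays, beside 23.8% of features with all probes. Joining the probe under the older Ccnd3 name was also added after seeing the data. The cause of these turns was not tested.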
